A study of Mus musculus with 8 samples.

Results

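The genes described here are 10 integrin subunit genes of mouse thymocytes, taken by name from the gene column of the deposited tables: Itgam, Itgal, Itgb2, Itgav, Itgb7, Itgae, Itga4, Itga6, Itga7 and Itgb1. They are 10 of the 23278 genes listed and 10 of the 26 integrin subunit genes among them. RNA came from GFP+ CD4+CD8+ double-positive (DP) thymocytes of C57BL/6 mice, sorted as DP1 (low CD5, low TCRβ) or as DP2 (high CD5, intermediate TCRβ). The WT control was Hdac3+/+, and the Hdac3KO carried floxed Hdac3 alleles (Hdac3F/F) with LCK-Cre, a Cre recombinase driven by a T cell promoter that acts in the T lineage from early thymocytes on. Each of the 4 groups (WT and Hdac3KO DP1, WT and Hdac3KO DP2) had 2 libraries, 8 in all, made from RNA pools. Whether the WT control carried Cre, what the GFP marks, and the ages of the animals are not given in the sources used here.

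Integrins are cell surface receptors built from 1 α and 1 β chain, and each α chain reaches the surface only with a β partner. They bind counter-receptors such as ICAM-1 and VCAM-1 or matrix proteins such as laminin and fibronectin, after signals from inside the cell (talin, kindlin and the small GTPase Rap1) have opened them. In the thymus they hold thymocytes to stromal cells and carry them through the cortex and medulla. Among the members, the α chains of LFA-1 (Itgal) and Mac-1 (Itgam, or CD11b) share the β2 chain (Itgb2), the α4 chain (Itga4) pairs with β1 (Itgb1) or β7 (Itgb7), and the αE chain (Itgae, CD103) pairs with β7. The laminin-binding chains α6 (Itga6) and α7 (Itga7) and the αv chain (Itgav), which binds vitronectin and fibronectin, can pair with β1. Itgam is best known as a marker of macrophages, granulocytes and natural killer cells, and Hdac3 encodes a histone deacetylase that works within the corepressor complexes of NCoR and SMRT.

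Each deposited value is 1 FPKM (a measure of transcript level corrected for transcript length and sequencing depth) per gene and group, without the values of single libraries. The 4 deposited tables compare the genotypes in DP1, the genotypes in DP2, the stages in WT and the stages in Hdac3KO, and each was scaled by itself. No spread between libraries could be computed, and the depth of the libraries is unknown. The error given with each log2 change is a standard error (SE), namely that change over the normal quantile of the authors' deposited p-value. It is an upper bound where that p is 5e-05, the smallest in the tables. A gene was called, and is said to have risen or fallen, where the q-value in the authors' deposited table, adjusted by Benjamini and Hochberg over all genes tested in that table by Cuffdiff, was at or under 0.05.

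Hdac3 was lower in Hdac3KO in the authors' deposited tables, at 38.1 against 11.7 FPKM in DP1 (q = 0.000879) and at 29.7 against 15.4 FPKM in DP2 (q = 0.0131). All 13 DP thymocyte markers were above 1 FPKM in every group, and Cd4, Cd8b1, Rag2, Themis and Bcl2l1 among them rose in Hdac3KO in DP2 and Themis in DP1. The 7 double-negative thymocyte markers summed to 54.6 and 30.7 FPKM in WT and Hdac3KO DP1 and to 231 and 50.6 FPKM in DP2. Most of this was Hhex in WT, which fell in Hdac3KO in both stages (47.8 to 8.53 FPKM, then 221 to 21.3 FPKM), while Il2ra rose in both (3.49 to 19.6 FPKM, then 4.41 to 26.3 FPKM), and their part in the changes below was not tested. Xist was at 0.0945 FPKM in WT and 208 FPKM in Hdac3KO DP1, and at 0.243 and 139 FPKM in DP2, while Kdm5d on the Y chromosome went the other way (20.01 and 0.264 FPKM, then 34.6 and 0.322 FPKM). The genotypes therefore differed in sex-linked transcripts in both stages, and sex and genotype cannot be told apart for any gene below. The median gene with at least 10 FPKM in both groups changed by −0.11 (DP1 genotypes), 0.12 (DP2 genotypes), −0.33 (WT stages) and −0.01 (Hdac3KO stages) on the log2 scale. Calls of the members that differ relative to that gene are given with each comparison, and those of the gene lists where they move the split of higher and lower calls.

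The 2 members that rose in Hdac3KO in both stages were Itgam and Itgb7, and the 250 bases before their annotated starts are shown for that reason. They come from RefSeq on GRCm38.p6, whose promoter table matched 5 of the 10 members (Itgam, Itgav, Itgb7, Itga4 and Itgb1). Itgam is shown from chr7:128062390-128062639 on the plus strand and Itgb7 from chr15:102231936-102232185 on the minus strand, both read 5′ to 3′ toward the gene. Capitals mark matches to the 5 motifs that were searched on both strands.
Itgam: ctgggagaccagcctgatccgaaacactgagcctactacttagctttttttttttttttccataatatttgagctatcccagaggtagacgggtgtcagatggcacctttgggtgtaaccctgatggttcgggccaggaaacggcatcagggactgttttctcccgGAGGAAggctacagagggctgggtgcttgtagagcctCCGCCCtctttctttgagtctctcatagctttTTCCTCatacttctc
Itgb7: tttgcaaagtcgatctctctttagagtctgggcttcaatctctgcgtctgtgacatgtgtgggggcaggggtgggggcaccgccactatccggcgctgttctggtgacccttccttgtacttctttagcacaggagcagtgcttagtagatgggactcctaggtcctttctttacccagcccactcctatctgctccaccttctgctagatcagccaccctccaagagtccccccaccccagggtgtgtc

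In the Itgam sequence the capitals are a PU.1-type ETS core (GAGGAA) that begins 84 bases before the start, its reverse complement (TTCCTC) 15 bases before the start, and a GC box (CCGCCC, the reverse complement of GGGCGG) 47 bases before it. None of these matches overlap. A further TTCCTC begins 32 bases after the Itgam start. In Itgb7 the shown stretch held no match, and 1 TTCCTC began 2 bases after the start. The window searched ran from 250 bases before to 50 after each start. Over 32817 such mouse promoter windows, the ETS core was found in 28.3%, the GC box in 35.6%, the RUNX core (TGTGGT) in 16.8%, the nuclear receptor core site (AGGTCA) in 16.3% and the TATA box (TATAAA) in 13.6%. Among the other matched members, Itgav and Itgb1 held an ETS core and a GC box, and Itga4 held a GC box and a RUNX core. These are matches of letters in a window and show no binding.

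Of the 9 members tested in DP1, 3 rose in Hdac3KO (Itgam, Itgb7 and Itgav) and 2 fell (Itga6 and Itga7), while 23.6% of all 10511 tested genes were called in that comparison (10.7% higher and 12.9% lower). Of the 9 tested in DP2, 2 rose (Itgam and Itgb7) and none fell, beside 10.8% of all 10674 tested genes (6.44% higher and 4.32% lower). At an unadjusted deposited Cuffdiff p under 0.05, 5 members passed in each stage. Relative to the median gene the calls were 3 higher and 1 lower in DP1 and 2 higher and 2 lower in DP2. The median log2 change of the members tested was 0.25 in DP1 and 0.16 in DP2, and that of all genes tested was −0.10 and 0.10. Itgae was tested in none of the 4 tables.

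**Figure D1:**
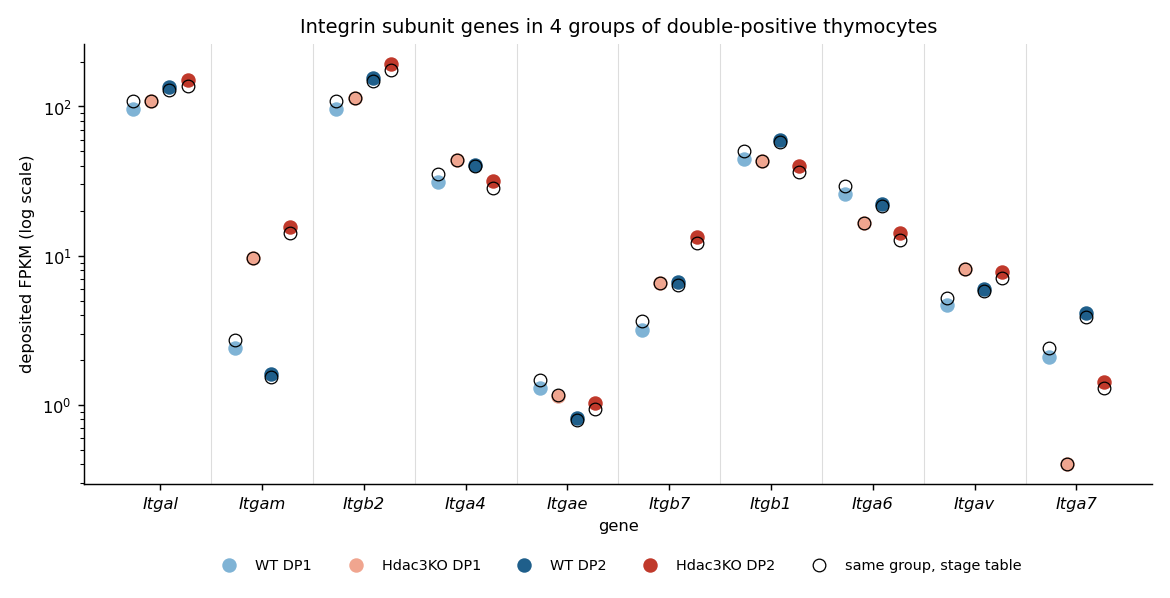
Deposited FPKM of the 10 integrin subunit genes (y axis, log scale) in the 4 groups; filled points are from the genotype tables and open circles are the same group in the stage tables, 1 value per group and table. Itgam lies at 2.40 and 1.60 FPKM in WT and at 9.58 and 15.7 FPKM in Hdac3KO, while Itgal and Itgb2 lie near or above 95.8 FPKM in every group of the genotype tables.

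The β2 family held both the highest members and the one with the largest rise. Itgam, encoding the α chain of Mac-1 (mm10 chromosome 7, 128062640 to 128118491, plus strand), was at 2.40 FPKM in WT DP1, 9.58 FPKM in Hdac3KO DP1, 1.60 FPKM in WT DP2 and 15.7 FPKM in Hdac3KO DP2, from the authors' deposited genotype tables. It was thus higher in Hdac3KO than in WT in both stages. The rise was 3.99-fold in DP1 (log2 2.0, SE at most 0.49, Cuffdiff q = 0.000879 in the authors' deposited table) and 9.80-fold in DP2 (log2 3.29, SE at most 0.81, q = 0.00134). Between stages, the authors' deposited tables gave Itgam 2.72 and 1.54 FPKM in WT DP1 and DP2 (log2 −0.82 ± 0.41 SE, q = 0.136) and 9.59 and 14.2 FPKM in Hdac3KO (log2 0.57 ± 0.23 SE, q = 0.137). Neither stage change passed the test.

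Itgal, encoding the α chain of LFA-1 (mm10 chromosome 7, 127296260 to 127335137, plus strand), was at 95.8 and 109 FPKM in WT and Hdac3KO DP1 and at 135 and 151 FPKM in WT and Hdac3KO DP2 in the authors' deposited genotype tables. Its genotype changes were small beside their errors, at log2 0.19 ± 0.25 SE in DP1 (95% interval −0.31 to 0.68, q = 0.630 in the authors' deposited table) and 0.16 ± 0.26 SE in DP2 (−0.35 to 0.67, q = 0.782). Itgb2, the β2 partner of both α chains (mm10 chromosome 10, 77530348 to 77565674, plus strand), was at 96.0, 114, 155 and 193 FPKM in that order. Its genotype changes were log2 0.25 ± 0.25 SE in DP1 (95% interval −0.24 to 0.74, q = 0.500 in the authors' deposited table) and 0.32 ± 0.24 SE in DP2 (−0.15 to 0.78, q = 0.460). For Itgal and Itgb2 the intervals hold 0 and end below the size of the Itgam change. Itgb2 was 39.9 times as high as Itgam in WT DP1, 11.9 times in Hdac3KO DP1, 96.7 times in WT DP2 and 12.3 times in Hdac3KO DP2.

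The other α chains that pair with β2 stayed low in these deposited values. Itgax (CD11c) was between 0.0837 and 0.270 FPKM and Itgad (CD11d) between 0.0657 and 0.262 FPKM over the 4 groups, and neither was tested. Itgam made up 2.44% of the summed FPKM of Itgal, Itgam, Itgax and Itgad in WT DP1, 8.04% in Hdac3KO DP1, 1.17% in WT DP2 and 9.40% in Hdac3KO DP2. Nearly all of the rest was Itgal.

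**Figure D2:**
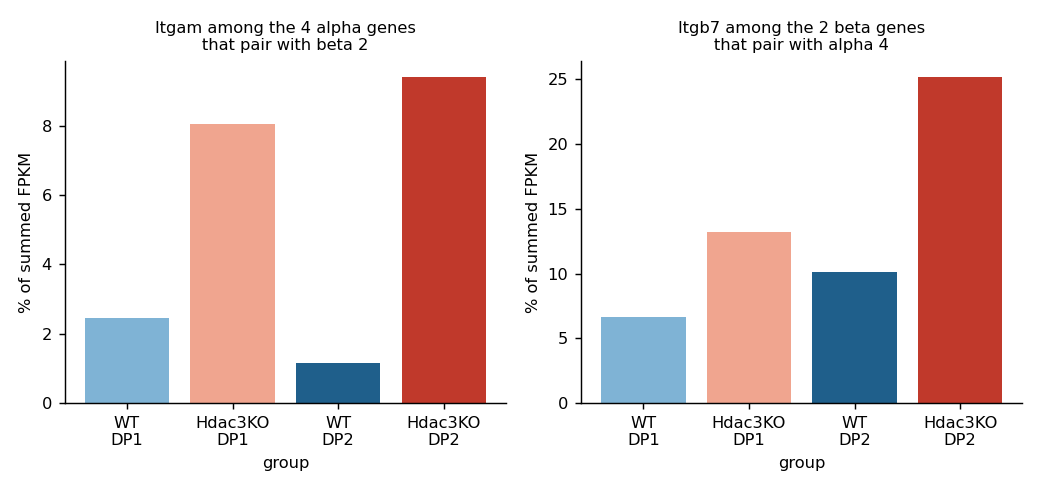
Share of Itgam in the summed FPKM of the 4 α genes that pair with β2 (left) and of Itgb7 in that of Itgb1 and Itgb7 (right), in percent, 1 bar per group from the genotype tables, with no error since each group has 1 value. Both shares are higher in Hdac3KO than in WT of the same stage, at 8.04% and 9.40% against 2.44% and 1.17% for Itgam and at 13.2% and 25.1% against 6.67% and 10.1% for Itgb7.

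Because Itgam marks myeloid cells, 28 other myeloid marker genes were read beside it. Their summed FPKM was 19.8 in WT DP1, 15.8 in Hdac3KO DP1, 27.7 in WT DP2 and 22.7 in Hdac3KO DP2, lower in Hdac3KO than in WT in both stages. In DP1 the fall of Cebpb alone, given below, was as large as that of the sum, which therefore shows no fall of the other markers together. Between 19 and 24 of the 28 were under 1 FPKM in a group. Cd14 and S100a8 were at or near 0 in every group, and Csf1r, the receptor of macrophage growth factor, was between 0.201 and 0.573 FPKM. Of the 28, 4 were tested in DP1, where none rose and 1 fell (Cebpb, a myeloid transcription factor, at 5.24 FPKM in WT and 1.14 FPKM in Hdac3KO by the authors' deposited table), and 5 in DP2, where none was called. Beside these few, 23.6% of all tested genes were called in DP1 and 10.8% in DP2. The highest of the 28 was Cebpb in WT DP1, and no other marker in Hdac3KO reached the 9.58 FPKM that Itgam had in DP1. Markers of natural killer and γδ T cells, where Itgam can also be found, summed over 11 genes to 3.79 and 4.88 FPKM in WT and Hdac3KO DP1 and to 8.10 and 9.78 FPKM in DP2, and Prf1 (perforin) among them rose in DP2 with Itgam. Their part in the Itgam values was not tested. The 12 dendritic cell markers summed to 6.60, 5.83, 19.3 and 8.07 FPKM in that order of groups. The 6 B cell markers summed to 8.68, 7.91, 9.17 and 6.62 FPKM, most of it Cd79b (between 5.25 and 7.79 FPKM). The 7 platelet markers summed to 2.33, 2.87, 3.91 and 2.71 FPKM. The 9 of thymic epithelium and endothelium summed to 52.2, 50.2, 56.4 and 58.4 FPKM. Most of that was Pecam1 (between 40.5 and 48.4 FPKM), and 6 of the 9 were under 1 FPKM in each group. Of the platelet, epithelial and endothelial markers, Gp1ba (0.494 to 1.69 FPKM, q = 0.0150 in the authors' deposited table) and Psmb11 (3.21 to 7.30 FPKM, q = 0.00154) rose in DP1 with Itgam, and their part in its values was not tested. In sorted bulk cells, more cells with a transcript and more transcript per cell cannot be told apart.

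**Figure D3:**
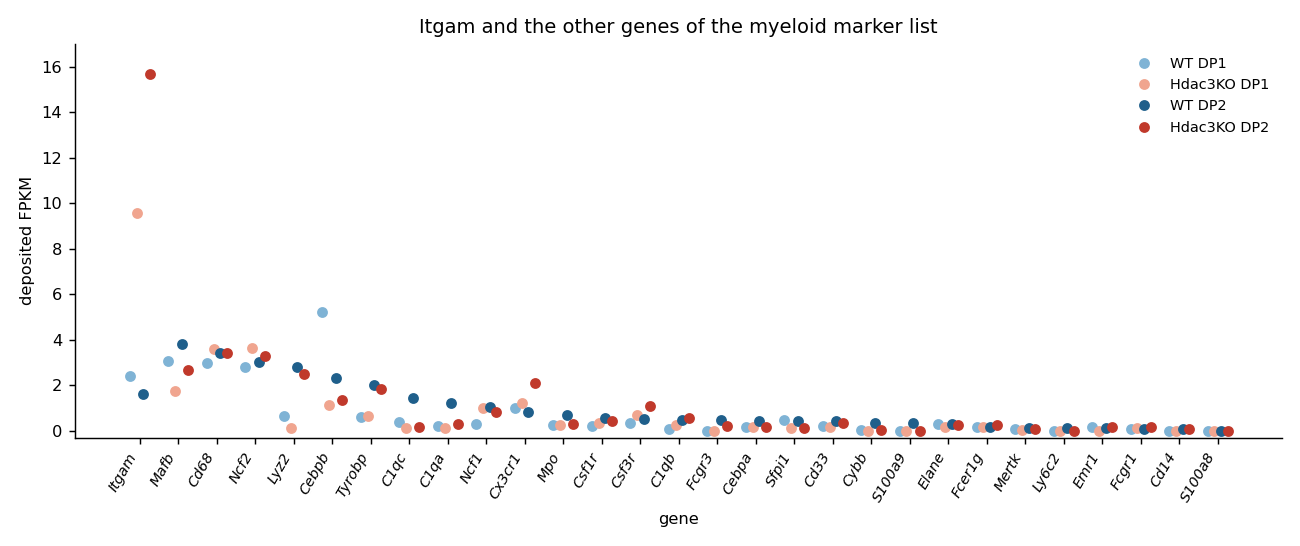
Deposited FPKM (y axis, linear) of Itgam and of the 28 other myeloid marker genes, ordered by their level in WT DP2, with 1 point per group from the genotype tables. Itgam reaches 9.58 and 15.7 FPKM in Hdac3KO, and every other gene lies at or under 5.24 FPKM in all groups.

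The genes around Itgam were read after its value was known. Within 150 kb of it lie 15 other listed genes, not counting any microRNA genes, of which 7 were tested in DP1 and 5 in DP2. Of all tested genes 23.6% were called in DP1 and 10.8% in DP2, so 1 call in each stage does not set this region apart. In DP1 the 1 called was Tgfb1i1, a paxillin-related adaptor (0.579 to 1.68 FPKM, q = 0.00665 in the authors' deposited table), and in DP2 the 1 called was Pycard, an inflammasome adaptor (46.2 to 75.5 FPKM, q = 0.0353 in the authors' deposited table). Both rose, each in that 1 stage, and the difference between stages is not given here. Itgax begins 11.1 kb past the end of Itgam and stayed at or under 0.270 FPKM. Itgal lies 727 kb away on the same chromosome.

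**Figure D4:**
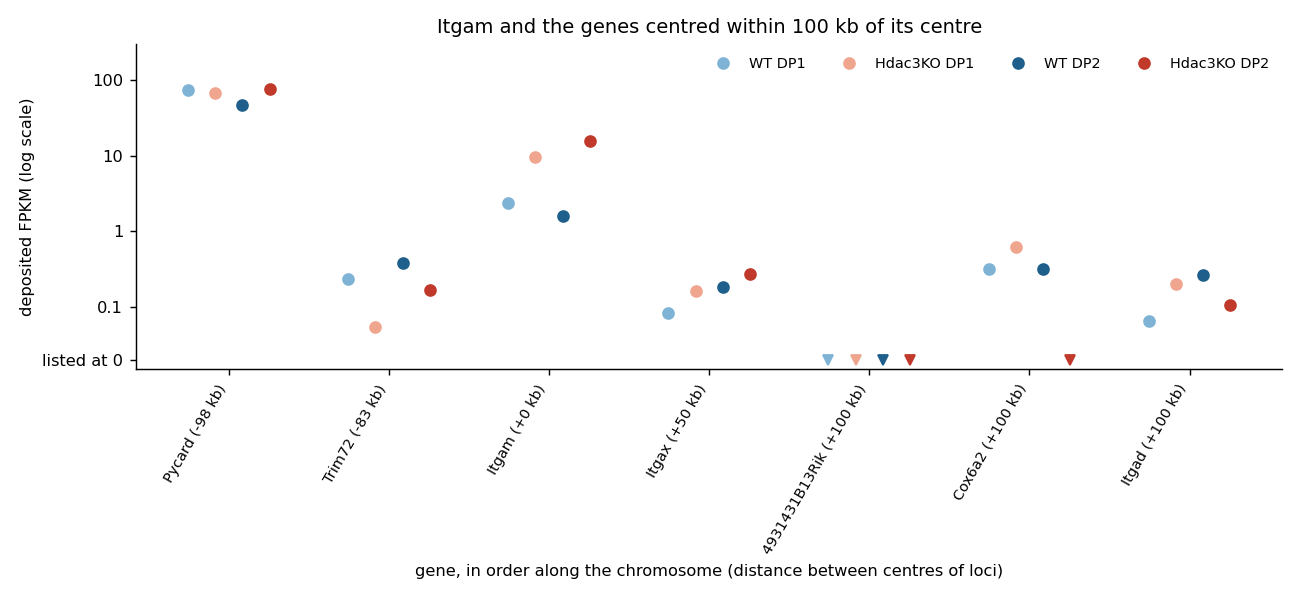
Deposited FPKM (y axis, log scale, triangles at the foot for genes listed at 0) of Itgam and the 6 other genes, not counting any microRNA genes, centred within 100 kb of its centre, in chromosome order, with the distance between centres of their listed loci. The Hdac3KO points of Itgam, at 9.58 and 15.7 FPKM, lie above its WT points at 2.40 and 1.60 FPKM, and Itgax beside it lies at or under 0.270 FPKM in every group.

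Itgb7, the β7 chain that pairs with α4 and αE and takes lymphocytes to the gut (mm10 chromosome 15, 102215995 to 102231935, minus strand), was at 3.18 FPKM in WT DP1, 6.59 FPKM in Hdac3KO DP1, 6.69 FPKM in WT DP2 and 13.4 FPKM in Hdac3KO DP2. The listed value was higher in Hdac3KO than in WT in both stages, and levels in different tables were not tested against each other. The rise was 2.08-fold in DP1 (log2 1.05 ± 0.32 SE, q = 0.00862 in the authors' deposited table) and 2.0-fold in DP2 (log2 1.0 ± 0.31 SE, q = 0.0171). Itgb7 also rose from DP1 to DP2 in Hdac3KO, from 6.56 to 12.1 FPKM (log2 0.89 ± 0.26 SE, q = 0.0165 in the authors' deposited table). In WT it was at 3.63 and 6.39 FPKM in DP1 and DP2 (log2 0.82 ± 0.38 SE, q = 0.105), which did not pass. The WT change relative to the median gene was 1.15, with an adjusted normal p of 0.0220.

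Itgae, the αE chain of CD103 that binds E-cadherin (mm10 chromosome 11, 73090595 to 73147449, plus strand), was at 1.29 and 1.16 FPKM in WT and Hdac3KO DP1 and at 0.814 and 1.04 FPKM in DP2. All values were low and none was tested. Itgb7 was 2.46 times as high as Itgae in WT DP1, 5.70 times in Hdac3KO DP1, 8.22 times in WT DP2 and 12.9 times in Hdac3KO DP2.

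Itga4, the α4 chain of VLA-4 that binds VCAM-1 and fibronectin (mm10 chromosome 2, listed locus 79255426 to 79428988, gene end 79333123 in GENCODE, plus strand), was at 31.3 FPKM in WT DP1, 43.6 FPKM in Hdac3KO DP1, 40.8 FPKM in WT DP2 and 31.5 FPKM in Hdac3KO DP2. The Hdac3KO value was the higher one in DP1 and the lower one in DP2, and neither genotype change passed (log2 0.48 ± 0.25 SE, q = 0.142, and −0.37 ± 0.23 SE, q = 0.336, in the authors' deposited tables). With the trend on transcript length removed the DP1 change was −0.0046. From DP1 to DP2 Itga4 fell in Hdac3KO, from 43.9 to 28.6 FPKM (log2 −0.62 ± 0.20 SE, q = 0.0350 in the authors' deposited table). With the length trend removed that fall was −0.50, with an adjusted normal p of 0.134, and the call was lost. In WT it was at 35.2 and 39.7 FPKM (log2 0.17 ± 0.28 SE, q = 0.705). The exons of Itga4 share 1124 of 13978 bases with Cerkl on the opposite strand, which was between 1.05 and 3.59 FPKM, and whether strand was used in counting is not stated.

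Itgb1, the β1 chain shared by α4, α6, α7 and αv (mm10 chromosome 8, 128685654 to 128733579, plus strand), was at 44.4 and 43.3 FPKM in WT and Hdac3KO DP1 and at 59.6 and 39.9 FPKM in DP2. The DP1 values were nearly equal (log2 −0.04 ± 0.25 SE, q = 0.933 in the authors' deposited table), with a 95% interval of −0.53 to 0.45. In DP2 the change was −0.58 ± 0.24 SE, and it did not pass (q = 0.0996 in the authors' deposited table). The DP2 change was −0.69 relative to the median gene, with an adjusted normal p of 0.0386. Itgb7 made up 6.67% of the summed FPKM of Itgb1 and Itgb7 in WT DP1, 13.2% in Hdac3KO DP1, 10.1% in WT DP2 and 25.1% in Hdac3KO DP2. In these sums the β7 share was the higher one in Hdac3KO in both stages.

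Itga6, an α chain of laminin receptors (mm10 chromosome 2, 71787083 to 71856758, plus strand), was at 25.8 and 16.6 FPKM in WT and Hdac3KO DP1 and at 22.1 and 14.1 FPKM in DP2. It was lower in Hdac3KO by nearly the same log2 size in both stages, −0.64 ± 0.25 SE in DP1 (q = 0.0483 in the authors' deposited table) and −0.65 ± 0.26 SE in DP2 (q = 0.0844). The DP1 change passed and the DP2 change did not. Relative to the median gene the order was the other way, at −0.52 in DP1 (adjusted normal p of 0.118) and −0.77 in DP2 (adjusted normal p of 0.0338).

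Itga7, the other laminin-binding chain and best known in muscle (mm10 chromosome 10, 128933813 to 128960988, plus strand), was at 2.1 FPKM in WT DP1, 0.401 FPKM in Hdac3KO DP1, 4.11 FPKM in WT DP2 and 1.43 FPKM in Hdac3KO DP2. The Hdac3KO value was the lower one in both stages. The fall in DP1 was log2 −2.39 with an SE of at most 0.59 (q = 0.000879 in the authors' deposited table), and WT was 5.23 times as high. In DP2 the change was −1.53 ± 0.63 SE and did not pass (q = 0.0988 in the authors' deposited table). These values are low, and with a pseudocount of 1 the Itga7 changes were smaller, at −1.15 in DP1 and −1.07 in DP2. Its exons share 9 bases with Mettl7b on the opposite strand, which was at or under 0.319 FPKM.

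Itgav, the αv chain that binds vitronectin and fibronectin and activates TGFβ (mm10 chromosome 2, 83724397 to 83806916, plus strand), was at 4.64 and 8.13 FPKM in WT and Hdac3KO DP1 and at 5.99 and 7.83 FPKM in DP2. It rose in DP1 by 1.75-fold (log2 0.81 ± 0.27 SE, q = 0.0158 in the authors' deposited table), and its DP2 change of 0.39 ± 0.26 SE did not pass (q = 0.392). The DP1 rise was 0.50, with an adjusted normal p of 0.205, once the trend on transcript length was removed, and the call was lost. Of the summed FPKM of Itga4, Itga6, Itgav and Itga7, Itgav held 7.26% in WT DP1, 11.8% in Hdac3KO DP1, 8.21% in WT DP2 and 14.3% in Hdac3KO DP2. Itga6 held 40.4%, 24.2%, 30.3% and 25.7% of it in the same order, and Itga4 held 49.0%, 63.4%, 55.9% and 57.4%. Itga4 was the highest of these 4 α chains in every group.

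**Figure D5:**
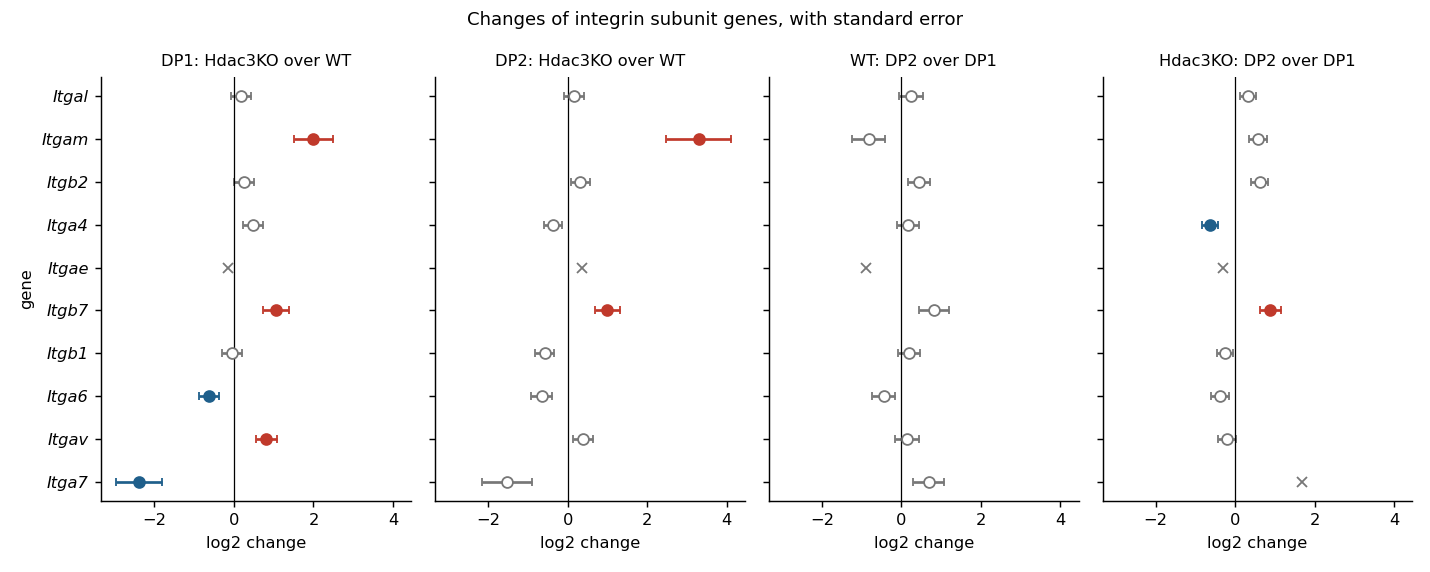
Log2 change of the 10 genes in the 4 comparisons (x axis), with horizontal bars for 1 standard error worked back from the deposited p. Red and blue filled points rose or fell at a deposited q of 0.05, open grey points were tested and not called, and crosses were not tested. Itgam and Itgb7 are red in both genotype panels, at 2.0 and 1.05 in DP1 and at 3.29 and 1.0 in DP2.

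From DP1 to DP2 in WT none of the 9 members tested was called by Cuffdiff, beside 22.3% of all 10851 tested genes (5.56% higher and 16.8% lower), and 2 had an unadjusted p under 0.05 (Itgam and Itgb7). The median log2 change of the members was 0.20, and that of all genes tested was −0.27. Relative to the median gene Itgb2 and Itgb7 were called higher, at 0.77 and 1.15 (adjusted normal p of 0.0417 and 0.0220). In Hdac3KO 1 of the 8 tested rose (Itgb7) and 1 fell (Itga4), beside 6.43% of all 10231 tested genes (1.78% higher and 4.65% lower). Itgb2 was next to the threshold, at 114 and 175 FPKM in Hdac3KO DP1 and DP2 (log2 0.62 ± 0.21 SE, q = 0.0504 in the authors' deposited table), and at 109 and 148 FPKM in WT (0.44 ± 0.28 SE, q = 0.262). In Hdac3KO it was called higher relative to the median gene, at 0.62 with an adjusted normal p of 0.0470. The medians there were 0.07 for the members and 0.01 for all genes tested, and 4 members had an unadjusted p under 0.05.

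The other members did not pass between stages. Itgal was at 109 and 130 FPKM in WT DP1 and DP2 (log2 0.25 ± 0.30 SE, q = 0.590 in the authors' deposited table) and at 109 and 137 FPKM in Hdac3KO (0.33 ± 0.21 SE, q = 0.491). Itgb1 was at 50.2 and 57.7 FPKM in WT (0.20 ± 0.28 SE, q = 0.648 in the authors' deposited table) and at 43.4 and 36.3 FPKM in Hdac3KO (−0.26 ± 0.21 SE, q = 0.652). Itga6 was lower in DP2 in both genotypes, at 29.2 and 21.4 FPKM in WT (−0.45 ± 0.28 SE, q = 0.253 in the authors' deposited table) and at 16.7 and 12.8 FPKM in Hdac3KO (−0.38 ± 0.23 SE, q = 0.441). For Itgal, Itgb1 and Itga6 the 95% intervals of both stage changes hold 0. Itgav was at 5.24 and 5.76 FPKM in WT and at 8.14 and 7.12 FPKM in Hdac3KO. Itga7 was higher in DP2 in both genotypes, at 2.40 and 3.88 FPKM in WT (0.69 ± 0.39 SE, q = 0.192 in the authors' deposited table) and at 0.400 and 1.29 FPKM in Hdac3KO, where it was not tested. Itgae, also not tested, was at 1.46 and 0.788 FPKM in WT and at 1.17 and 0.942 FPKM in Hdac3KO. The genotype and stage comparisons share libraries, so they are not independent of each other.

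A member called in 1 stage and not in the other is not thereby shown to differ, so the difference of the genotype effects was tested itself. None of the 9 members tested passed an adjusted p of 0.05 for the DP2 change minus the DP1 change, beside 2.08% of all 10144 genes tested in both tables, and 1 had an unadjusted normal p under 0.05. That 1 was Itga4, whose DP2 change was lower than its DP1 change by −0.85 ± 0.34 SE (an unadjusted normal p of 0.0115, and 0.145 adjusted over all genes). Its difference was −1.08 relative to the median gene of each table, with an adjusted normal p of 0.0418. For Itgam the difference was 1.30 ± 0.95 SE (95% interval −0.56 to 3.16, adjusted normal p of 0.469), from SE that are upper bounds. By the route of the stage tables it was 1.39 ± 0.47 SE (95% interval 0.47 to 2.32, adjusted normal p of 0.0690), beside 3.13% of 9969 genes called. The difference was −0.05 ± 0.45 SE for Itgb7, −0.02 ± 0.36 SE for Itga6, −0.42 ± 0.37 SE for Itgav and 0.86 ± 0.86 SE for Itga7, and the intervals of all 4 hold 0.

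The order of the members by FPKM, which is per length, was alike in the 4 groups at its top. Itgal and Itgb2 were the highest in each group, followed by Itgb1, Itga4 and Itga6, except that Itga4 was above Itgb1 in Hdac3KO DP1 (43.6 against 43.3 FPKM) and Itgam above Itga6 in Hdac3KO DP2. Itgav, Itgb7, Itga7 and Itgae were at 13.4 FPKM or less. Itgam changed its place most: it was the eighth in WT DP1 and the ninth in WT DP2, and it was the sixth in Hdac3KO DP1 and the fifth in Hdac3KO DP2, where its 15.7 FPKM stood above the 14.1 FPKM of Itga6 and the 13.4 FPKM of Itgb7. Which neighbours in this order differ beyond their spread could not be tested without values per library. Over the members, a group's FPKM in the genotype table was a median of 0.883 times that in the stage table for WT DP1, 1.04 times for WT DP2, 0.999 times for Hdac3KO DP1 and 1.10 times for Hdac3KO DP2.

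Of the 16 other integrin subunit genes, 14 were under 1 FPKM in every group, with 0.987 FPKM (Itgb4) as the highest value. Itga5, the α chain of the main fibronectin receptor, was at 4.10 and 4.05 FPKM in WT and Hdac3KO DP1 and at 4.24 and 6.82 FPKM in DP2, and its DP2 change did not pass (log2 0.69 ± 0.30 SE, q = 0.125 in the authors' deposited table). Itgb3, which pairs with αv and with the platelet chain αIIb, was at 0.624, 0.280, 1.65 and 0.460 FPKM in that order. None of the 16 was called by Cuffdiff in any of the 4 tables, where at most 2 of them were tested, and relative to the median gene Itgb3 alone was called, as higher in WT DP2 than in WT DP1.

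Of the genes that open integrins from inside the cell, most were not called. In DP1, 3 of 20 tested genes of this list rose, 1 fell and 16 were not called, with a median log2 change of 0.03, beside 23.6% of all tested genes called. The shares of all genes called that were given with the members hold for the counts of every list here. Those that rose were Fyb, the adaptor ADAP (98.5 to 200.02 FPKM by the authors' deposited table), Apbb1ip, the Rap1 effector RIAM (27.0 to 46.7 FPKM), and Rassf5, the Rap1 effector RAPL (36.3 to 57.6 FPKM). Skap2, an ADAP partner, fell from 8.02 to 4.03 FPKM, a call that was lost relative to the median gene. In DP2, 3 of 21 rose, 2 fell and 16 were not called, with a median of 0.26: the kinase genes Prkd2 (46.0 to 95.3 FPKM) and Stk4 (141 to 233 FPKM) and the ADAP partner Skap1 (139 to 234 FPKM) rose, and Rap1a, the GTPase itself (356 to 199 FPKM), and Raph1, or lamellipodin (3.89 to 0.839 FPKM), fell by the authors' deposited table. That split was 1 higher and 3 lower relative to the median gene. From DP1 to DP2, 3 of 21 rose in WT (Raph1, Cytip and Rap1a) and 1 fell (Rasgrp2), which was 4 higher and 0 lower relative to the median gene, and in Hdac3KO 1 of 20 rose (Cytip) and 1 fell (Apbb1ip). Cytip, which binds the β2 regulator cytohesin-1, stood at 29.8 and 88.7 FPKM in WT DP1 and DP2 and at 28.3 and 57.1 FPKM in Hdac3KO by the authors' deposited tables.

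Of the list of integrin inhibitors, integrin-associated tetraspanins and recycling genes, 2 of 15 tested rose in DP1 and 1 fell, with a median of −0.19. Itgb1bp2, or melusin, a β1-binding protein of muscle, rose from 1.62 to 4.64 FPKM, Krit1, which binds the inhibitor ICAP1, rose from 9.54 to 20.1 FPKM, and the tetraspanin gene Cd81 fell from 49.8 to 20.3 FPKM, all by the authors' deposited table. In DP2, 1 of 17 fell (Mdga1, an adhesion protein gene best known in neurons, 4.90 to 1.04 FPKM) and none rose, with a median of 0.05. In WT from DP1 to DP2, 2 of 17 rose (Mdga1 and Krit1) and 1 fell (Cd81), which was 2 higher and 0 lower relative to the median gene, and none of 15 was called in Hdac3KO. The medians of the list were −0.02 and 0.19.

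Downstream of engaged integrins, 5 of 34 tested genes of the adhesion complex and outside-in list rose in DP1 and 1 fell, with a median of 0.15. That split was 6 higher and 1 lower relative to the median gene. Vav3, an exchange factor for small GTPases, rose in both stages, from 1.60 to 8.96 FPKM in DP1 and in DP2 from 4.87 to 13.4 FPKM, by the authors' deposited tables. The others named by size in DP1 were Tgfb1i1, the adaptor Crk (17.2 to 35.8 FPKM) and the Src family kinase gene Fyn (16.7 to 31.2 FPKM), and the kinase gene Fgr fell from 5.21 to 2.78 FPKM. In DP2, 4 of 35 rose and 1 fell, with a median of 0.33: Vav3, Vav1 (51.7 to 98.7 FPKM), Actn1 of α-actinin (69.6 to 131 FPKM) and Dock2 (79.4 to 139 FPKM, a call lost relative to the median gene) rose, and Parva, or α-parvin (2.52 to 0.499 FPKM), fell by the authors' deposited table. In WT from DP1 to DP2, 4 of 35 rose (Parva, Vav3, Evl and Fyn) and 5 fell (among them Syk, Fgr, Actn4 and Rhoa), a split that was 9 higher and 2 lower relative to the median gene. In Hdac3KO 2 of 34 rose (Evl and Lpxn) and 1 fell (Tgfb1i1).

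Ligands were mostly untested in these cells: 4 of the 28 were tested in DP1 and 6 in DP2. Icam1, the ligand of LFA-1 and Mac-1, rose in both stages, from 6.06 to 10.99 FPKM in DP1 and in DP2 from 8.98 to 19.6 FPKM, by the authors' deposited tables. In DP2, Icam2, another LFA-1 ligand (48.7 to 88.8 FPKM), and Thy1, a counter-receptor of Mac-1 (366 to 720 FPKM), rose, while Cd40lg (24.7 to 3.60 FPKM) and the laminin chain gene Lama5 (1.95 to 0.666 FPKM) fell by the authors' deposited table. The median of the list was −0.09 in DP1 and 0.45 in DP2. In WT from DP1 to DP2, Cd40lg (listed at 0 FPKM and then 24.0 FPKM) and Lama5 rose and Thy1 fell from 922 to 345 FPKM, of 6 tested, and none of 4 was called in Hdac3KO. The WT split was 1 higher and 1 lower relative to the median gene, since Cd40lg has no log2 change from 0 FPKM.

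Of the 19 genes listed as regulators of integrin transcription in lymphocytes, 1 of 16 tested rose in DP1, Runx1, a Runt factor that acts on several leukocyte integrin genes (22.6 to 40.3 FPKM by the authors' deposited table), with a median of 0.31. Relative to the median gene 3 were higher. With the length trend removed the Runx1 call was lost and the 1 gene called was Smad3, as lower. In DP2, 1 of 15 rose, Foxo1 (6.44 to 12.5 FPKM), with a median of 0.10. In WT from DP1 to DP2, 2 of 17 rose (Gata3 and Tgfbr2), and in Hdac3KO 1 of 15 fell (Runx1, 40.3 to 24.7 FPKM). The gene of PU.1, the myeloid ETS factor named with the motif above, was at 0.482 FPKM in WT DP1, 0.129 FPKM in Hdac3KO DP1, 0.443 FPKM in WT DP2 and 0.116 FPKM in Hdac3KO DP2. It was listed under its older symbol Sfpi1, is also among the 28 myeloid markers, and was not tested. From DP1 to DP2 the median log2 change of the regulators was 0.16 in WT and 0.04 in Hdac3KO, that of the ligands −0.24 and 0.22, that of the adhesion complex list −0.20 and 0.07, and that of the activation list −0.06 and 0.08, beside −0.27 and 0.01 over all genes tested.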

How the data were processed

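Per the labels' protocols, total RNA was depleted of ribosomal RNA and made into libraries with the Clontech SMARTer Stranded kit. Per the submitters' processing notes, reads were handled with TopHat2 2.0.11 on mm10, Trimmomatic 0.32 and Cuffdiff 2.1.1, and the annotation and strand setting are not given in the sources used here. The deposited FPKM, p-value and q-value are the authors' own, with 1 FPKM per gene and group in each of 4 tables, and the authors' deposited score (the Cuffdiff test statistic) was not used. The depth of each library is unknown, so no interval from counts was computed. Replicates share only a number in the labels, and nothing says that the RNA pools came from separate animals.

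Log2 changes were computed from the deposited FPKM, with SE as the size of the log2 change over the normal quantile of the deposited p. A difference of 2 effects was tested with their SE added in squares and a two-sided normal p, adjusted by Benjamini and Hochberg over all genes tested in both tables. The deposited q was checked to equal that adjustment within each table. The procedure was tested on simulated data. Scripts used Python 3.11.15, pandas 2.3.3, SciPy 1.17.1 and statsmodels 0.14.6. Positions are those listed in the tables on mm10, counted from 1, and exon overlaps and transcript lengths are from GENCODE on mm10. The listed loci differ from the GENCODE gene bounds for several members. Among them, GENCODE ends Itga4 at 79333123 and Itga7 at 128958282, and it starts Itga6 at 71745616. The trend on length was fitted by lowess (fraction 0.3) to the genes that reached 10 FPKM in both groups, with lengths for 90.2% to 90.4% of the tested genes.

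All 10 members are named. Some genes of the marker and neighbour counts are not reported here by name. Of the gene lists the called genes are named, at most 4 per direction, list and comparison, by size of log2 change among those whose higher group reached 1 FPKM. Markers, neighbours, Itga5 and Itgb3 were picked for naming once their values had been seen. The members and lists were chosen with earlier results of these data known. The alternatives tried were other limits of q (0.01 and 0.10), a minimum log2 size of 1, p-values adjusted over the 4 tables together, log2 changes relative to the median gene, a minimum of 1 FPKM, a pseudocount of 1, removal of the length trend, and, for the differences, the stage tables, SE multiplied by 1.5 and an adjusted p of 0.10.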

Additional observations from a re-analysis of the deposited data

How the results depend on the processing

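Itgam and Itga7 in DP1 and Itgam in DP2 kept their genotype calls under every alternative run, and Itgb7 kept its DP1 call under every one as well. Of these alternatives, the pseudocount left the calls as they were by design and a q of 0.10 could only add calls, so neither could remove one. Of the other calls, members called in DP1 numbered 3 instead of 5 at a q of 0.01, with a log2 change of at least 1 and with the length trend removed (Itgav and Itga6 lost each time), although Itga6 was as large with the length trend removed (−0.66, adjusted p of 0.0550). It was 4 adjusted over all 4 tables and relative to the median gene (Itga6 lost). In DP2 the 2 calls became 1 at a q of 0.01 (Itgb7 lost), 5 at a q of 0.10 (Itga6, Itga7 and Itgb1 added), and 4 relative to the median gene and with the length trend removed (Itga6 and Itgb1 added). For the stages, 0 became 2 in WT relative to the median gene and with the length trend removed (Itgb2 and Itgb7), and 2 in Hdac3KO became 0 at a q of 0.01 and with a log2 change of at least 1, 1 with the length trend removed (Itga4 lost), and 3 at a q of 0.10, adjusted over all 4 tables and relative to the median gene (Itgb2 added). For the difference of the genotype effects, 0 became 1 relative to the median gene (Itga4). Signs turned for changes near 0: in DP1 Itgb1 was 0.074 relative to the median gene and 0.010 with the length trend removed, and Itga4 was −0.0046 with the length trend removed. The differences of effects through the stage tables were 0.077 for Itgal, 0.069 for Itgb7 and 0.062 for Itga6, and that of Itgb2 was −0.16 relative to the median gene. Of the members' changes under the alternatives, where only centring, the pseudocount and length removal alter the log2 value itself, 249 kept their sign and side of the threshold, 14 gained a call, 14 lost one and 3 turned in sign. The 249 include cases whose outcome was fixed, such as all calls under the pseudocount. Counts of calls in the gene lists stayed within 1.5 times in 154 cases and did not in 38. Centring and length removal use new normal p-values. For other shifts the cause was not tested.

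No paired analysis was possible because the tables hold 1 value per group and none per library, and leaving out each library was not run for the same reason. Precision is limited by the 2 libraries a group, and members near 1 FPKM, such as Itgae, were not tested.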
